A study of Mus musculus with 6 samples.

Results

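Cells of the mouse mammary carcinoma line E0771 that expressed introduced wild-type Malt1 (Malt1-WT, 3 libraries) were compared with E0771 cells carrying the vector control (3 libraries), and the 7 interleukin-12 family genes examined here were taken by exact gene symbol from the 55571 symbols of the count table. They are the cytokine subunit genes Il12a, Il12b, Il23a, Il27 and Ebi3 and the receptor chain genes Il12rb1 and Il27ra. All 7 symbols were found. No stimulus, no other allele and no time point is labelled for either group. The Malt1 protein is a paracaspase that assembles with Bcl10 and a CARD-family scaffold into a complex known for activating NF-kB. How Malt1 was introduced, and whether each group was 1 clone or a mixed population, was not given in the sources used here.

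Cytokines of the interleukin-12 family are pairs of an alpha chain, which folds like interleukin-6, and a beta chain, which resembles a soluble cytokine receptor. The chains are shared: Il12b encodes p40, the beta chain of IL-12 (with p35, from Il12a) and of IL-23 (with p19, from Il23a), while Ebi3 is the beta chain of IL-27 (with p28, from Il27) and of IL-35 (with p35), and was described with p19 in mouse B cells as IL-39. Dendritic cells and macrophages are the best known source of these cytokines, and T cells and natural killer cells are their best known targets. IL-12 favours interferon-gamma producing T cells, IL-23 maintains interleukin-17 producing T cells, and IL-27 both promotes and restrains T-cell responses.

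Il12b and Il23a, the subunit genes of IL-23, were both higher in Malt1-WT, and IL-23 was the single cytokine of the family for which both subunit genes were expressed, in Malt1-WT libraries alone. Il23a rose 12.9-fold and Il12b 45.7-fold. Il27ra rose 1.74-fold. Il12a, Il27 and Ebi3 were below 1 CPM (a count relative to a fixed library total) in each of the 6 libraries, and Il12rb1 had no count in any of them. CPM values here are scaled between libraries by TMM, a method that corrects library totals for differences in composition. In bulk libraries, more RNA per cell and more cells of a type cannot be told apart. Dendritic cell markers were higher in the same libraries, with a summed level of 42.5 to 44.5 CPM in Malt1-WT and 11.2 to 13.7 CPM in the vector control. Most of the Malt1-WT sum came from Zbtb46 and Cd74, at 17.8 and 15.6 CPM on average. These genes were at 8.79 and 1.25 CPM in the vector control. Macrophage or monocyte markers summed to 25.7 to 28.4 CPM in Malt1-WT and 13.1 to 16.6 CPM in the vector control, but were mixed. Of the 5 tested in that list, 3 were called higher, Lyz2 was lower and Csf1r was not called. Ptprc had at most 3 counts in any library. The part of these markers in the Il12b and Il23a differences was not tested.

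The regulatory sequence at the Il12b and Ebi3 starts is shown because it sets the beta chain gene that rose beside the beta chain gene that stayed near 0. Both windows are RefSeq sequence of build GRCm38.p6 running from 250 bases before to 50 bases after the annotated start, plus strand, at chr11:44399813-44400112 for Il12b and chr17:55952373-55952672 for Ebi3. Capitals mark motif matches. In Il12b these are a minus-strand match to GGGAATT, a short NF-kB core, at positions -129 to -123 from the start, and a C/EBP core, TTGCAAT, at -93 to -87. In Ebi3 they are the NF-kB consensus at -44 to -35, matched on both strands, and at 15 to 24.
Il12b: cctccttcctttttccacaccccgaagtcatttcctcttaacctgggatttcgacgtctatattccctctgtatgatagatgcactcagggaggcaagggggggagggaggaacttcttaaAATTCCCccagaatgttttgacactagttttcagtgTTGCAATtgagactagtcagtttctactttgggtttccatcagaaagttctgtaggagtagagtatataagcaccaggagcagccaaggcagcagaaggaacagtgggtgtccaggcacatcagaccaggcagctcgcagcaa
Ebi3: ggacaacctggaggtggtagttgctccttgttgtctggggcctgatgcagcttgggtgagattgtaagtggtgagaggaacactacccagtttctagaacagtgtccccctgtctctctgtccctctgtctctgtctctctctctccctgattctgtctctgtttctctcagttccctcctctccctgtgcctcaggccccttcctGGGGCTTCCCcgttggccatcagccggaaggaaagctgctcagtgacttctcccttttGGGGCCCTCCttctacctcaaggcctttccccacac

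Several motifs were searched on both strands of the RefSeq promoter windows. Of the 32851 windows in the table, 8.46% held the NF-kB consensus, 3.44% the interferon-stimulated response element core (GAAA, any 2 bases, GAAA), 7.81% the AP-1 letters TGANTCA, 3.51% GGGAATT and 2.22% TTGCAAT. The last pair was added after the Il12b window had been read, because an NF-kB and a C/EBP element are known in this promoter in mouse macrophages, so their presence there is a description only. The longer NF-kB consensus had no match in the Il12b window. Il12a has annotated starts at 2 places, and its windows held 1 match in all, TTGCAAT on the minus strand at -156 to -150 of the upstream start. Windows were found for 3 of the 7 members and for none of Il23a, Il27, Il12rb1 and Il27ra. A match describes letters in the window and is not evidence of binding.

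The 3' untranslated regions (3' UTRs) of the alpha chain and p40 genes share a feature that the choice of genes did not use. AU-rich pentamers (ATTTA in DNA letters) are recognised by tristetraprolin-type proteins that shorten the life of cytokine mRNAs, and p40 mRNA is also a known substrate of Regnase-1 in mouse macrophages. In the longest annotated 3' UTR of each gene (GENCODE M21), Il12a, Il12b and Il23a held 6 pentamers each and Il27 held 5. Ebi3 held 1, and both receptor chain genes held 0. Among 11545 tested genes with an annotated 3' UTR, 22.1% held at least 5. The 3' UTRs of these 7 genes are 245 to 797 bases long. The longer heptamer TATTTAT occurred 5 times in Il12a and Il23a, 4 times in Il27, 1 time in Il12b and not in the other 3 members, and 30% of tested genes held at least 1. The stretch of 30 bases richest in pentamers is given for each of the 4 genes, plus sense of the mRNA, with the pentamers in capitals.
Il12a: gcctATTTAtATTTATTTAttttctATTTA
Il12b: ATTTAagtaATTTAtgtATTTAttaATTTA
Il23a: agtatagatgatggttATTTAttctATTTA
Il27: ccagatATTTAtttcttggatATTTATTTA

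**Figure D1:**
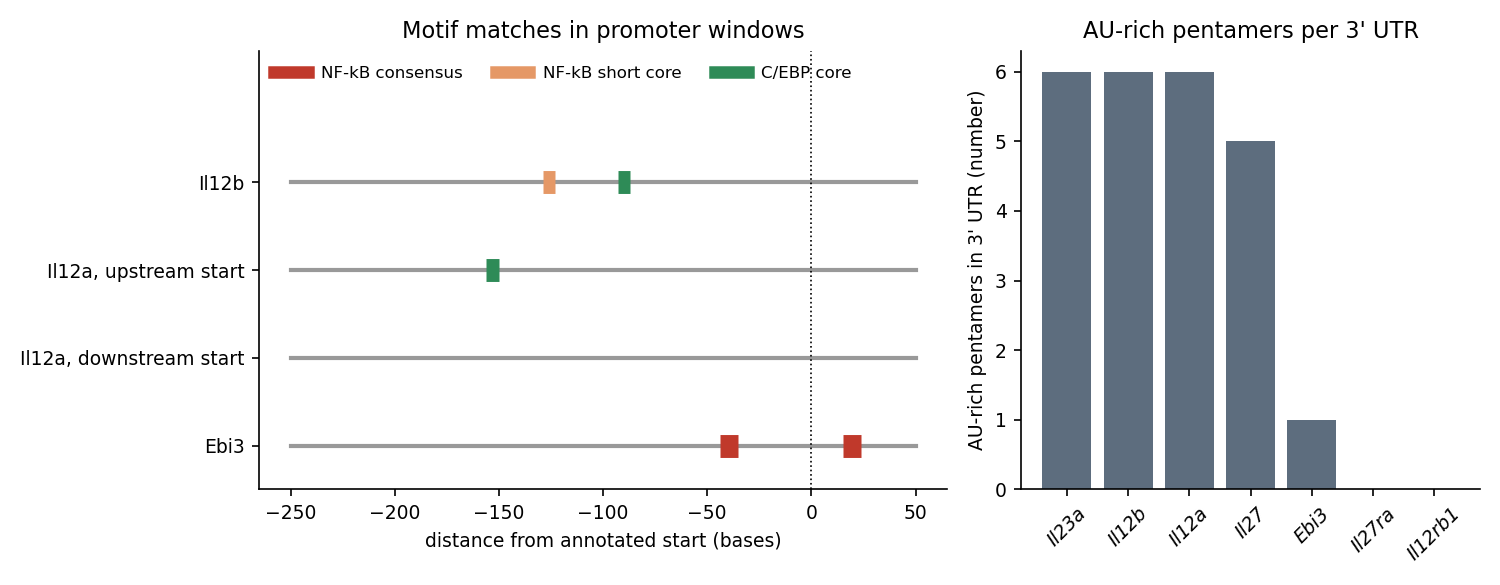
Left, motif matches (coloured blocks) along the promoter windows of Il12b, Il12a (both annotated starts) and Ebi3, by distance from the annotated start in bases. Right, number of AU-rich pentamers in the longest annotated 3' UTR of each of the 7 genes, with 5 or 6 in Il23a, Il12b, Il12a and Il27, 1 in Ebi3 and 0 in Il27ra and Il12rb1.

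Total counts were between 17601656 and 20543778 per library. Malt1 itself had 5526, 6176 and 5087 counts in Malt1-WT and 517, 633 and 611 counts in the vector control, a 10.2-fold difference after scaling, in which introduced and endogenous transcripts are counted together. Of 13594 genes tested with edgeR's quasi-likelihood test, 61.2% were called changed at a Benjamini-Hochberg adjusted p under 0.05, 31% higher and 30.2% lower in Malt1-WT. Each member's rank among all increases is therefore given beside its call. Of the 5 epithelial markers Krt8 was at 59.6 ± 1.83 CPM in Malt1-WT and 68.5 ± 2.30 CPM in the vector control and Epcam at 6.22 ± 1.00 and 6.30 ± 0.318 CPM (SD, n = 3 each), while Krt18, Krt19 and Cdh1 had at most 9 counts in any library. Krt8 was called lower in Malt1-WT (edgeR adjusted p = 0.000316) and Epcam was not called. The name of the line was taken from the sample titles, and these mixed markers do not establish it.

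Of the 7 members, 3 passed the filter on low counts, Il23a, Il12b and Il27ra. Il12b passed through its Malt1-WT counts alone, so a difference was built into its passing. The other 4 members are described by their counts, with no genome-wide test.

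Il23a, which encodes the p19 chain of IL-23 (chromosome 10, 128296139 to 128298752, minus strand, GRCm38), had 1647, 1542 and 1377 counts in Malt1-WT and 130, 120 and 126 counts in the vector control. All Malt1-WT libraries lay far above all vector control libraries, and 32.4% of all tested genes separated the groups in this direction. Malt1-WT replicate 2, the lowest of its group after scaling, was still well above vector control replicate 1, the highest of its group. On the CPM scale these were 92.0, 76.9 and 80.4 in Malt1-WT and 7.17, 5.89 and 6.26 in the vector control. The log2 fold change was 3.69 (SE 0.0801, edgeR adjusted p = 6.4e-39), which ranked 107th among the increases of the 13594 tested genes. Il23a was the single cytokine subunit gene of the family at or above 1 CPM in the vector control.

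Il12b, the p40 gene (chromosome 11, 44400063 to 44414033, plus strand), had 84, 94 and 95 counts in Malt1-WT and 0, 3 and 3 counts in the vector control. The groups did not overlap, as in 32.4% of all tested genes for this direction. The mean was 4.98 ± 0.496 CPM in Malt1-WT and 0.0987 ± 0.0855 CPM in the vector control (SD, n = 3 each). The log2 fold change was 5.51 (SE 0.377, edgeR adjusted p = 2.7e-18), ranked 26th among the increases. Since the vector control rests on 6 counts in all, the size is uncertain: the ratio of summed counts, scaled for library size, was 48.5 with an exact 95% interval of 22.0 to 133, which covers counting error only.

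Il12a, the p35 gene (chromosome 3, 68690644 to 68698547, plus strand), had 10, 16 and 6 counts in Malt1-WT and 6, 9 and 5 counts in the vector control. The groups overlapped. The scaled ratio of summed counts was 1.70 (exact 95% interval 0.945 to 3.14), and an exact two-sided permutation test of the CPM values gave p = 0.2, where 3 against 3 libraries allow no less than 0.1. A difference in Il12a was not detectable at this depth.

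Il27, the p28 gene (chromosome 7, 126589010 to 126594941, minus strand), had 1, 1 and 4 counts in Malt1-WT and 0, 3 and 2 counts in the vector control. The groups overlapped, and the scaled ratio was 1.28 with an interval of 0.325 to 5.29. The gene's end overlaps that of Apobr on the opposite strand in the annotation, and Apobr was at 25.5 ± 0.564 CPM in Malt1-WT and 24.4 ± 1.96 CPM in the vector control (SD, n = 3 each), so even these few reads cannot be assigned to Il27 with certainty.

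Ebi3 (chromosome 17, 55952640 to 55957022, plus strand) had 0, 5 and 5 counts in Malt1-WT and 0, 0 and 1 counts in the vector control. Malt1-WT replicate 1 stood at 0 with the vector control libraries, so the groups overlapped. The scaled ratio was 10.7, but its interval ran from 1.52 to 462, and the exact two-sided permutation test over libraries gave p = 0.4. The annotated antisense transcript Gm16712 overlaps Ebi3 and had 6, 1 and 0 counts in Malt1-WT and 2, 0 and 0 counts in the vector control. Whether counting used the strand was not given in the sources used here.

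Il27ra, which encodes a chain of the IL-27 receptor (chromosome 8, 84030294 to 84042589, minus strand), had 91, 100 and 89 counts in Malt1-WT and 49, 62 and 60 counts in the vector control. All Malt1-WT libraries were above all vector control libraries, as in 32.4% of all tested genes, at 5.09 ± 0.106 CPM and 2.91 ± 0.181 CPM (SD, n = 3 each). The log2 fold change was 0.80 (SE 0.173, edgeR adjusted p = 7.2e-05), ranked 1508th among the increases. Il12rb1, the receptor chain shared by IL-12 and IL-23 (chromosome 8, 70808449 to 70821424, plus strand), had 0 counts in all 6 libraries. A count of 0 allows up to 0.175 CPM in a Malt1-WT library and up to 0.165 CPM in a vector control library, taking the shallowest library of each group and a floor of 3 counts. No fold change can be given for it.

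**Figure D2:**
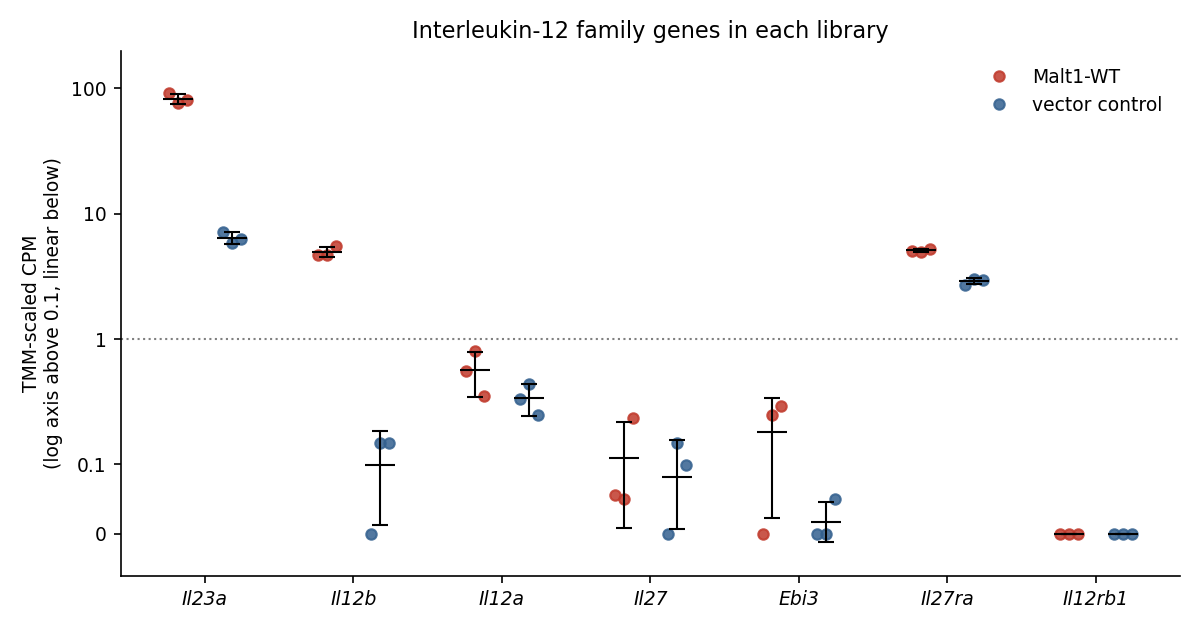
TMM-scaled CPM of the 7 genes in each library, Malt1-WT in red and vector control in blue; black bars give the mean and SD of 3 libraries, and the dotted line marks 1 CPM. Il23a and Il12b separate the groups widely, at 83.1 and 4.98 CPM in Malt1-WT on average, Il27ra by less, and Il12a, Il27 and Ebi3 overlap below 1 CPM.

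The authors' deposited table gives log2 fold changes of 5.72 for Il12b (adjusted p = 0.0299), 3.68 for Il23a (adjusted p = 0.00182) and 0.79 for Il27ra (adjusted p = 1) for Malt1-WT over vector control. In the authors' deposited table the test statistic of Il27ra is 0 and that of Il12b 7.66, and the tool behind these values was not given in the sources used here. A statistic of 0 beside a log2 fold change of 0.79 does not come from an ordinary test against no change. The authors' adjusted p-values are therefore not comparable with those from edgeR above, and do not show that Il27ra was unchanged. The authors' deposited table lists an adjusted p of 1 also for Il12a, Il27, Ebi3 and Il12rb1.

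A gene was counted as expressed in a group at 1 CPM or more in all 3 libraries. By this rule Il23a and Il12b were both expressed in Malt1-WT, which gives the IL-23 pair. In the vector control Il23a was expressed but Il12b was not, so the pair lacked p40. The IL-12 pair was incomplete in both groups: Il12b passed in Malt1-WT, while the highest Il12a library had 0.798 CPM in Malt1-WT and 0.441 CPM in the vector control. The IL-27 and IL-35 pairs had neither gene at the threshold in either group, and the IL-39 pair had Il23a without Ebi3 in both groups. In all, 1 of 5 cytokine pairs was complete in Malt1-WT and 0 of 5 in the vector control. RNA levels do not show whether the chains were translated, paired or secreted.

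Of the 3 receptor pairs 1 was complete, in both groups. It was the IL-27 receptor, made of Il27ra and the shared signalling chain gp130, from Il6st, which was at 250 ± 13.1 CPM in Malt1-WT and 218 ± 3.34 CPM in the vector control (SD, n = 3 each). The IL-12 receptor lacked Il12rb1 and also Il12rb2, which had 2, 2 and 1 counts in Malt1-WT and 2, 0 and 6 counts in the vector control. The IL-23 receptor lacked Il12rb1 and Il23r, with 0, 3 and 1 counts of Il23r in Malt1-WT and 4, 0 and 0 counts in the vector control.

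**Figure D3:**
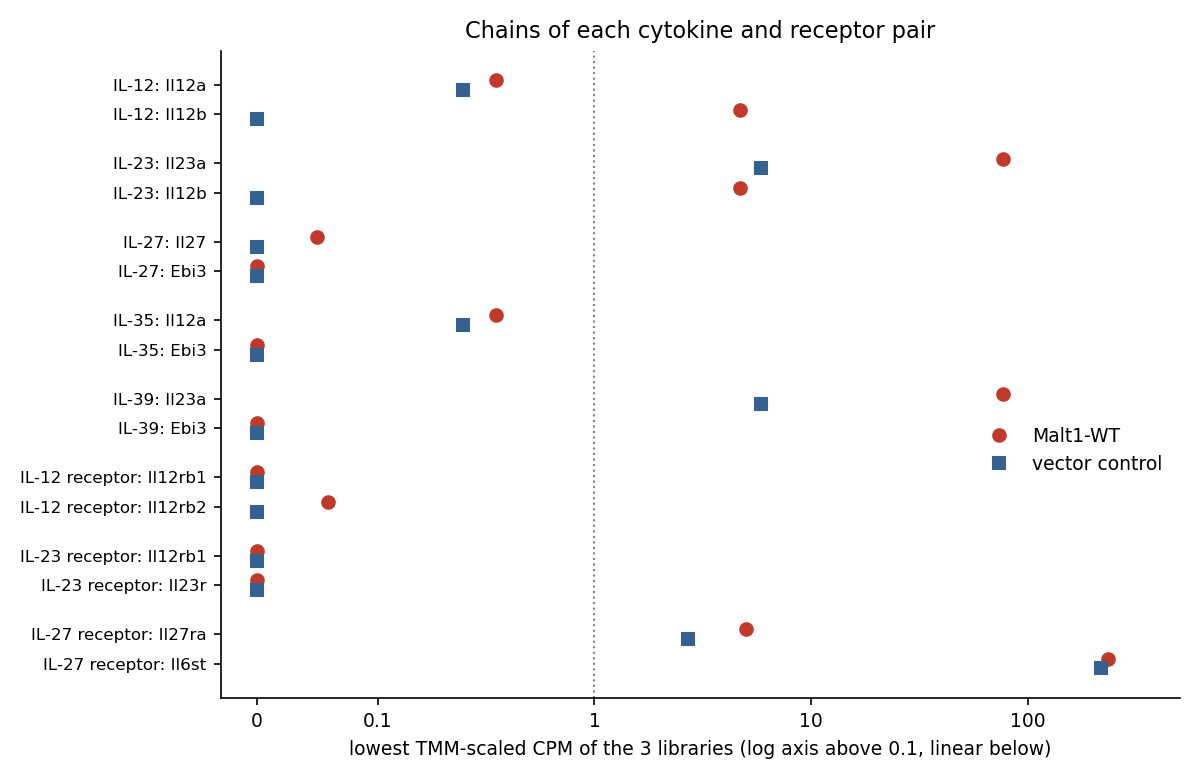
Lowest TMM-scaled CPM among the 3 libraries for each chain of 5 cytokine pairs and 3 receptor pairs, Malt1-WT as red circles and vector control as blue squares, with the dotted line at 1 CPM. Both chains lie right of the line for IL-23 in Malt1-WT alone and for the IL-27 receptor in both groups.

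Levels of different genes were compared per kilobase of annotated exon. In Malt1-WT the order was Il23a at 37.0 ± 3.52, Il12b at 2.53 ± 0.252, Il27ra at 1.46 ± 0.0304, Il12a at 0.334 ± 0.132, Ebi3 at 0.156 ± 0.137 and Il27 at 0.111 ± 0.102 CPM per kilobase (SD, n = 3). The first 4 of these did not overlap between neighbours, whereas the libraries of Il12a, Ebi3 and Il27 overlapped, so their order is not set. In the vector control Il23a came first again, at 2.86 ± 0.293 CPM per kilobase, followed by Il27ra at 0.832 ± 0.0518 and Il12a at 0.200 ± 0.0570 CPM per kilobase. Il27 (0.0805 ± 0.0735), Il12b (0.0502 ± 0.0435) and Ebi3 (0.0143 ± 0.0248 CPM per kilobase) overlapped one another there. Il12b thus stood second of the family in Malt1-WT and among the lowest genes in the vector control.

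The chains of the IL-23 pair were not at equal RNA levels. Per kilobase, Il23a exceeded Il12b by 17.2, 14.4 and 12.7 times in Malt1-WT replicates 1 to 3. Il12b in turn exceeded Il12a by 7.26, 5.08 and 13.7 times in the same libraries. The p19 message was the most abundant and the p35 message the least abundant of these 3 in every Malt1-WT library. Exon lengths were taken over all annotated transcripts of a gene, which include retained-intron forms for Il23a and Il12a, so ratios between genes are approximate.

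For each tested member, the 3 tested genes with the most similar pattern over the 6 libraries were those with the smallest root mean square difference of centred log2 CPM, leaving out predicted genes and pseudogenes. For Il12b these were Gpr84 (difference 0.30), a fatty acid receptor gene, Lta (0.31), which encodes lymphotoxin-alpha, and Alppl2 (0.35). For Il23a they were Nos2 (0.11), which encodes inducible nitric oxide synthase, the guanylate-binding protein gene Gbp2 (0.11) and Il1f9 (0.12), which encodes interleukin-36 gamma. For Il27ra they were Dhrs1 (0.03), Mtss1 (0.03) and Shf (0.03). The log2 fold change of Nos2 was 3.73, that of Gbp2 3.76 and that of Il1f9 4.05, beside 3.69 for Il23a. The difference between groups is part of the pattern compared, so similar fold changes follow from how these genes were chosen. The genes nearest to Il12b had smaller differences than its 5.51, with log2 fold changes of 4.84 for Gpr84, 4.97 for Lta and 4.66 for Alppl2.

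Genes of the wider pathway were taken from 4 lists of 34 genes in all, of which 27 passed the filter. Of these, 23 were higher in Malt1-WT, 4 lower and 0 not called, against 61.2% called over all tested genes. The median log2 fold change of the 27 was 0.90, and that of all tested genes was -0.00286. The lists were chosen with earlier results of these data known, so their counts and medians are a description only.

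Among receptor and signalling genes, 6 of 9 passed the filter and all 6 were higher (median log2 fold change 0.31). Over all tested genes 31% were called higher. Jak2, a kinase bound to IL-12 and IL-23 receptors, rose most, to 114 ± 1.34 CPM in Malt1-WT, against 30.4 ± 0.392 CPM in the vector control (log2 fold change 1.91, edgeR adjusted p = 2.0e-36). Tyk2, the partner kinase of Jak2, rose by 0.33 and Stat3 by 0.30. Jak1 stood at 0.07 (adjusted p = 0.042), and its call was lost under 9 of 13 alternatives, with the sign turned under scaling by library size only. Stat4, the transcription factor through which IL-12 acts in T cells, had 0 counts in all 6 libraries.

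Among the other partner chains, Il6ra, which encodes the ligand-binding chain of the interleukin-6 receptor, fell to 76.9 ± 3.29 CPM in Malt1-WT, against 115 ± 1.26 CPM in the vector control (log2 fold change -0.58, edgeR adjusted p = 1.8e-17). Cd5l, which encodes a binding partner of p40, had 0 counts.

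Of 15 transcription factors known to act on the subunit genes, 12 were tested, with 11 higher and 1 lower (median 1.02). The shares over all tested genes were 31% higher and 30.2% lower. Irf1, an activator of Il12a and Il12b, rose most, to 433 ± 15.8 CPM in Malt1-WT, against 77.2 ± 1.13 CPM in the vector control (log2 fold change 2.49, edgeR adjusted p = 1.5e-47). All 5 NF-kB subunit genes were higher, with log2 fold changes of 1.57 for Nfkb2, 1.24 for Relb, 1.15 for Nfkb1, 1.11 for Rel and 0.90 for Rela. Rel encodes c-Rel, which is required for p40 and p19 induction in mouse myeloid cells. Nfkbiz, a nuclear co-activator of Il12b, rose by 1.09. The member that fell was Irf8, the myeloid activator of Il12b, at 5.50 ± 0.730 CPM in Malt1-WT and 7.57 ± 0.301 CPM in the vector control (log2 fold change -0.47, adjusted p = 0.00306). Cebpb had 4183, 2772 and 2407 counts in Malt1-WT and 1522, 1881 and 1780 counts in the vector control, so that Malt1-WT replicate 1 stood above the rest of its group. Its log2 fold change was 0.95 (adjusted p = 0.0354), and 6 of 13 alternatives did not call it. Spi1 and Batf3, which encode myeloid and dendritic cell factors, had at most 5 counts in any library.

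All 7 mRNA decay genes were tested, with 6 higher and 1 lower (median 1.02), beside 31% higher and 30.2% lower over all tested genes. Zfp36, which encodes tristetraprolin, rose by 3.67 (SE 0.0660, edgeR adjusted p = 4.9e-43), to 104 ± 3.11 CPM in Malt1-WT, against 8.12 ± 0.576 CPM in the vector control. Zc3h12a, which encodes Regnase-1, rose by 1.13 and Arid5a, which protects interleukin-6 mRNA from Regnase-1, by 1.40. Zfp36l1 rose by 1.02, while its relative Zfp36l2 fell by 0.44 on the log2 scale. Zfp36 and Zc3h12a were thus higher in the same libraries as Il12b and Il23a. Both encoded proteins are also regulated after translation, which counts do not show.

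**Figure D4:**
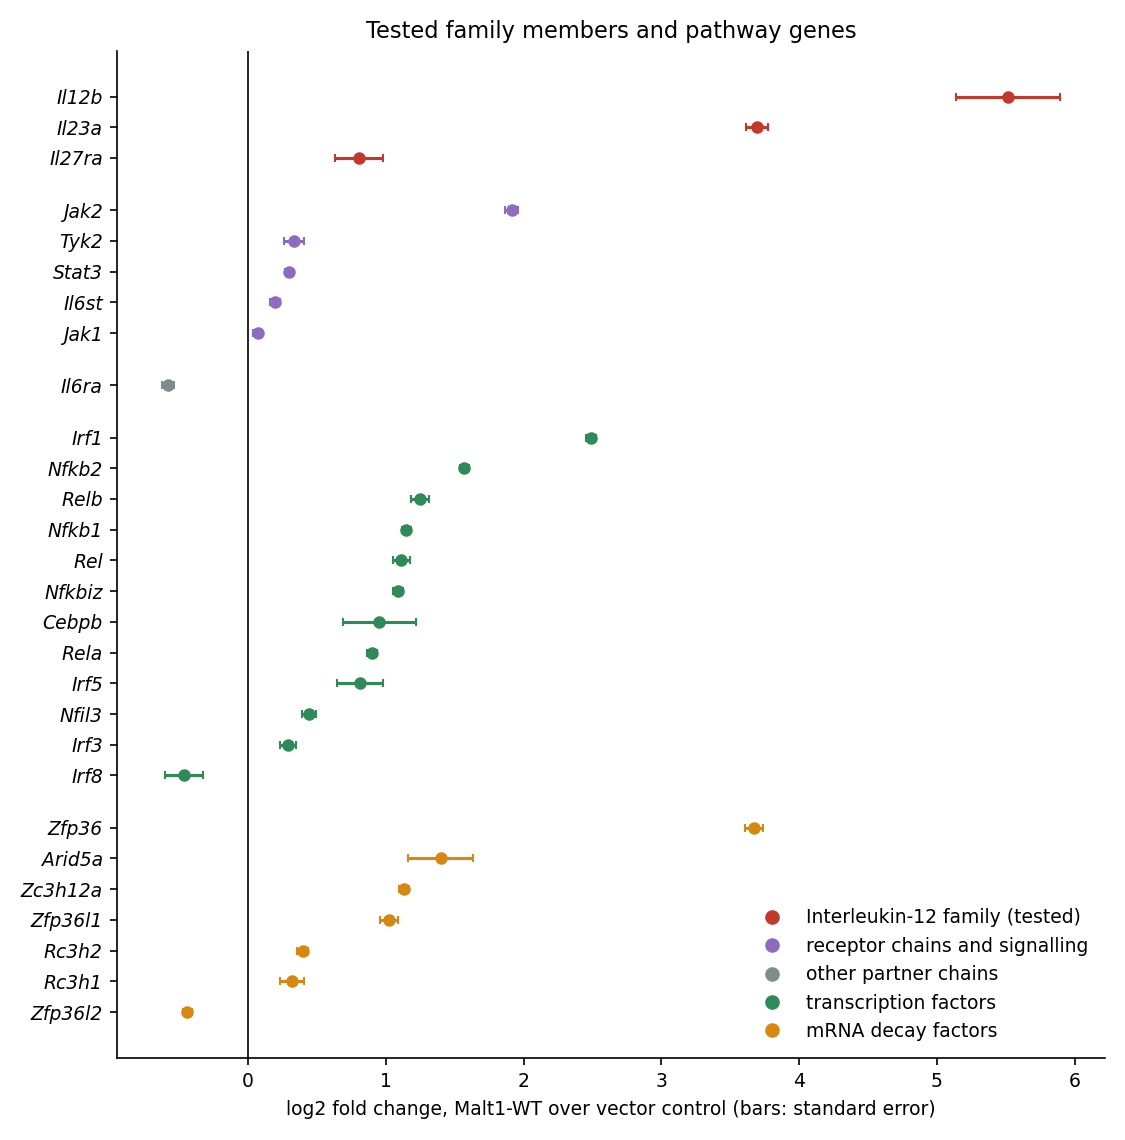
Log2 fold change of Malt1-WT over vector control (points) with its standard error (bars) for the 3 tested family members and the tested pathway genes reported here, grouped by list. Il12b (5.51) and Il23a (3.69) lie at the right with Zfp36 (3.67), and Irf8, Zfp36l2 and Il6ra lie left of 0.

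Markers of the cells that are the usual source of these cytokines were examined beside the result. Of 7 dendritic cell markers 6 passed the filter and were called higher in Malt1-WT, where 31% of all tested genes were called higher. Among them were H2-Aa (38, 41 and 29 counts in Malt1-WT, 0 in each vector control library), Flt3 (43, 33 and 26 counts against 4, 4 and 2) and Cd74. H2-Aa, Flt3 and Ccr7 in this list and Adgre1 and Csf1r in the next would not have passed the filter on their vector control counts. Lyz2 in the next list would not have passed on its Malt1-WT counts. The counts of called markers therefore lend no support. Xcr1 did not pass (2, 4 and 8 counts in Malt1-WT, 0, 2 and 0 in the vector control). Of 9 macrophage or monocyte markers 5 were tested, with 3 higher (Adgre1, Cd14 and Cd68), 1 lower (Lyz2) and 1 not called (Csf1r). The pan-leukocyte gene Ptprc had 0, 1 and 3 counts in Malt1-WT and 2, 1 and 0 counts in the vector control, and Tyrobp had 0 counts throughout. Which cells the Il12b and Il23a RNA came from was not tested. The 4 B cell markers summed to at most 1.12 CPM in Malt1-WT and 0.992 CPM in the vector control, and the 5 T or NK cell markers to at most 0.391 CPM in Malt1-WT and 0.0497 CPM in the vector control, with Cd3g, Cd8a and Ncr1 at 0.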

How the data were processed

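RNA was sequenced from 6 E0771 libraries, grouped by sample title. The submitters' processing notes name build GRCm38.p6 (mm10), Trim Galore 0.6.0, the aligner STAR 2.7.3a and the counter featureCounts 1.6.3. Its annotation and its strand setting were not given in the sources used here. The authors deposited raw counts per gene symbol, together with their own log2 fold change and mean log2 expression, a t statistic (a score), p-value and adjusted p-value, per the file headers.

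Here, genes were filtered with filterByExpr (minimum count 10), scaled by TMM on full library totals, and tested with edgeR 4.0.16 (R 4.3.3) quasi-likelihood tests, robust, without a block; p-values were Benjamini-Hochberg adjusted over all tested genes. The standard error is the log2 fold change divided by the root of F. Counting intervals of ratios are exact binomial ones. DESeq2 1.42.0 was an alternative. The test was checked on counts simulated with few changed genes, which does not cover data where most tested genes are called. Within groups, library pairs differed by 2.18 to 3.01 chi-square per degree of freedom, so all were kept. The labels do not say that libraries came from separate cultures, so p-values measure the spread between these libraries, which may be technical. All members, Malt1, pathway genes with the largest changes and the nearest patterns were named by rule; genes named for a lost call or as exceptions were chosen after their values were seen. Members and lists were chosen with earlier results of these data known. Positions, exon lengths and 3' UTRs are from GENCODE M21 and promoters from RefSeq. The results of some listed genes are not reported here.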

Additional observations from a re-analysis of the deposited data

How the results depend on the processing

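The calls of Il12b, Il23a and Il27ra held under all 13 alternatives (RLE, upper quartile or no scaling, no filter or a minimum count of 30, DESeq2, a replicate block, and leaving out each library). The log2 fold change ran from 5.001 to 5.88 for Il12b, from 3.61 to 3.77 for Il23a and from 0.73 to 0.83 for Il27ra, with adjusted p at most 1.0e-15, 9.8e-34 and 6.5e-04 in this order of genes. The lowest and highest Il12b values came without vector control replicates 1 and 3. Without a filter, Il12a (0.73, edgeR adjusted p = 0.396), Ebi3 (2.98, 0.130) and Il27 (0.36, 0.871) were tested and not called. The complete pairs stayed IL-23 in Malt1-WT and the IL-27 receptor in both groups under 10 alternatives for the threshold, scaling and libraries. Called genes numbered 7632 to 8534 over the alternatives, with 3528 higher and 5006 lower with library size only, against 4210 higher and 4110 lower as reported, and called pathway genes 24 to 27. Same-numbered libraries did not deviate together (correlations of -0.0261, -0.0207 and 0.0174), so the numbers are not taken as pairs; with the replicate block 8168 genes, 25 pathway genes and 3 members were called. Depth limits Il12a, Il27, Ebi3 and Il12rb1, which had at most 16 counts in any library.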
